A study of Mus musculus with 6 samples.

Results

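miR-103-3p (MIMAT0000546) and miR-107-3p (MIMAT0000647) are 2 closely related mature miRNAs with a known part in insulin sensitivity. They were taken by these identifiers, and not by their values, from the 707 mature miRNAs counted by miRNA-seq in white adipose tissue (WAT) of the mouse. All 6 libraries came from male ApoE-deficient mice, which lack apolipoprotein E, clear lipoproteins poorly and develop high blood cholesterol. The CIH group (3 libraries) was kept for 8 weeks under chronic intermittent hypoxia (CIH), a model of obstructive sleep apnea. Each cycle took the cage air from 21% oxygen to a low point near 6% and back, with 60 s for either phase. The control group (3 libraries) carried the same deletion and was not exposed to CIH. No wild-type mice were included, the age of the mice is not given in the sources used here, and the fat depot is named only as WAT. The labels do not say whether the libraries of a group came from separate animals, so p-values measure the spread between these libraries.

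A miRNA guides the silencing complex to messenger RNAs that pair with its seed, bases 2 to 8, and lowers their translation and stability. miR-103 and miR-107 are known from work in obese mice, in which their silencing improves glucose tolerance and insulin sensitivity. A known target in fat cells is caveolin-1, the main protein of caveolae, which helps to stabilize the insulin receptor. Each hairpin lies within a gene of the pantothenate kinase family, whose enzymes catalyze the first step of coenzyme A synthesis.

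The mature sequences are shown because they share a seed and nearly all other bases, which bears on how their reads can be told apart. They are given 5′ to 3′ from RefSeq (GRCm38.p6), with the seed in capitals.
miR-103-3p: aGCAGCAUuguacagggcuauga
miR-107-3p: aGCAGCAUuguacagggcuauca
Both are 23 bases long. They differ by a single substitution, G22C, with miR-103-3p as the first base and positions counted from 1 at the 5′ end, so their first 21 bases are identical. Of the 1679 mature miRNA names in the RefSeq table, these 2 alone carry this seed, and these 2 alone begin with these 21 bases. A read that ends before base 22 matches both miRNAs equally. How the authors counted such reads is not given in the sources used here, and their part in the values below was not tested.

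The 7 bases at the start of miR-103-3p also form the seed of the miR-15 and miR-16 family, shifted by 1 base. The shared bases are in capitals in the following examples from RefSeq.
miR-103-3p: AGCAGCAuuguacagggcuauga
miR-15a-5p: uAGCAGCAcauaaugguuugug
miR-16-5p: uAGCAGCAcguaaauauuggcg
miR-195a-5p: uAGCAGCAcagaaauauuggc
miR-322-5p: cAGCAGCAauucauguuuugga
miR-497a-5p: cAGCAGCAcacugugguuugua
In all, 10 mature names in the table had these 7 bases at positions 2 to 8. The levels of this family are not analysed here, because the count table lists identifiers without names.

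miR-103-3p can be made from 2 hairpins and miR-107-3p from 1, which are shown with the 3p arm in capitals to place the mature miRNA at its loci. Reads of miR-103-3p do not tell Mir103-1 and Mir103-2 apart, since the 23 bases are the same in both.
Mir103-1: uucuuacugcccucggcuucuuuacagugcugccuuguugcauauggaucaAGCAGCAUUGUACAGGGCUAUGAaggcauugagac
Mir103-2: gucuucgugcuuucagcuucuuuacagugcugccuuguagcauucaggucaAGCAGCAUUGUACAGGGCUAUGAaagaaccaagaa
Mir107: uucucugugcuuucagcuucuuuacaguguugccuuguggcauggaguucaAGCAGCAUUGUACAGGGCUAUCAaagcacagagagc
On GRCm38.p6, Mir103-1 lies at chr11:35782396-35782481 (plus strand), in an intron of Pank3. Mir103-2 lies at chr2:131288052-131288137 (plus strand), in an intron of Pank2. Mir107 lies at chr19:34820687-34820773 (minus strand), in an intron of Pank1. In the principal transcript of each host gene in GENCODE release M21, the hairpin lay between exons 5 and 6 of 7 and on the strand of the host, and it overlapped 0 annotated exons. The hairpins were 80.2% identical between Mir103-1 and Mir103-2, 80.5% between Mir103-1 and Mir107, and 83.9% between Mir103-2 and Mir107.

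The opposite, 5p arms of the 3 hairpins are also nearly the same, and they are shown with the bases that differ from miR-103-2-5p in capitals.
miR-103-2-5p: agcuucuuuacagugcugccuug
miR-103-1-5p: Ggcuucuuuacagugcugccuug
miR-107-5p: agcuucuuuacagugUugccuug
The differences from miR-103-2-5p were A1G in miR-103-1-5p and C16U in miR-107-5p. Unlike the 3p arm, the 5p arm could therefore tell Mir103-1 from Mir103-2. Its counts are not analysed here, for want of a name for each identifier.

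The libraries held between 636963 and 4783768 counts. Control 3 stood apart from its group. Across 633 miRNAs that reached 10 counts in all, its TMM-normalized log2 CPM (CPM are counts scaled to a total of 1000000 per library, and TMM adjusts these totals) correlated at 0.958 to 0.974 with the 3 CIH libraries and at 0.595 and 0.661 with control 1 and control 2, which correlated with each other at 0.831. Such correlations run across miRNAs and not across independent samples. The group comparisons and the measures of spread are therefore also given without control 3. This does not mark control 3 as the atypical library. Control 1 and control 2 had counts for 487 and 552 of the 707 miRNAs, against 636 in control 3. In CIH 1, 2 and 3 the same number was 640, 631 and 649. Control 1 (1365868 counts) and control 2 (4783768) were deeper than control 3 (792870), CIH 2 (737514) and CIH 3 (636963). CIH 1 held 1577952 counts. Not every miRNA without counts in control 1 and control 2 was rare elsewhere. MIMAT0004236 had none there, against 4840 TMM-normalized CPM in control 3 and 3249, 4047 and 3320 in CIH 1, 2 and 3. The cause was not tested. Because identifiers are not paired with names, neither the miRNAs typical of fat cells nor those of other cell types could be used to check the tissue.

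miR-103-3p was an abundant miRNA in every library. Its counts were 1099, 17637 and 2402 in control 1, 2 and 3, and 2337, 2091 and 1533 in CIH 1, 2 and 3. It stood between place 29 (control 2) and place 59 (control 1) of the 707 miRNAs by count. Scaled to the library total, control 1, 2 and 3 had 805, 3687 and 3030 CPM of it, and CIH 1, 2 and 3 had 1481, 2835 and 2407 CPM. Control 1 had the lowest level and control 2 the highest, with all CIH libraries between them. The exact 95% binomial intervals of neighbours in this order overlapped only for CIH 2 (2715 to 2959 CPM) and control 3 (2910 to 3153 CPM). These intervals cover counting error only, since reads were not tagged by molecule as far as the sources used here say.

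TMM normalization adjusts each library total for a few miRNAs taking up much of it. On this scale miR-103-3p had 1399, 4255 and 2165 TMM-normalized CPM in control 1, 2 and 3, against 1877, 2259 and 1663 in CIH 1, 2 and 3. The order kept control 1 at the bottom and control 2 at the top, and the groups overlapped. Controls averaged 2606 ± 1478 (SD, n = 3) and CIH libraries 1933 ± 302 (SD, n = 3). The highest control library exceeded the lowest 3.04-fold, and in the CIH group the same fold was 1.36.

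miR-107-3p was found at a lower level than miR-103-3p in every library. Its counts were 93, 409 and 371 in control 1, 2 and 3, and 287, 249 and 181 in CIH 1, 2 and 3. It stood between place 115 (control 3) and place 152 (control 2) of 707. In CPM of the library total, control 1, 2 and 3 had 68.1, 85.5 and 468, and CIH 1, 2 and 3 had 182, 338 and 284. Control 1 and control 2 were the lowest and control 3 the highest. The exact 95% intervals of neighbours overlapped for control 1 (55.0 to 83.4 CPM) with control 2 (77.4 to 94.2 CPM) and for CIH 3 (244 to 329 CPM) with CIH 2 (297 to 382 CPM).

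On the TMM-normalized scale miR-107-3p had 118, 98.7 and 334 CPM in control 1, 2 and 3, against 230.5, 269 and 196 CPM in CIH 1, 2 and 3. Each CIH library was above control 1 and control 2 and below control 3, so that the groups overlapped. Controls averaged 184 ± 131 (SD, n = 3) and CIH libraries 232 ± 36.4 (SD, n = 3). The highest control library exceeded the lowest 3.39-fold, against 1.37-fold in the CIH group. Without control 3 the other two controls differed 1.20-fold, and their mean was 109 TMM-normalized CPM. In WAT, fewer cells of a type that holds a miRNA and less of it per cell cannot be told apart from these values.

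**Figure D1:**
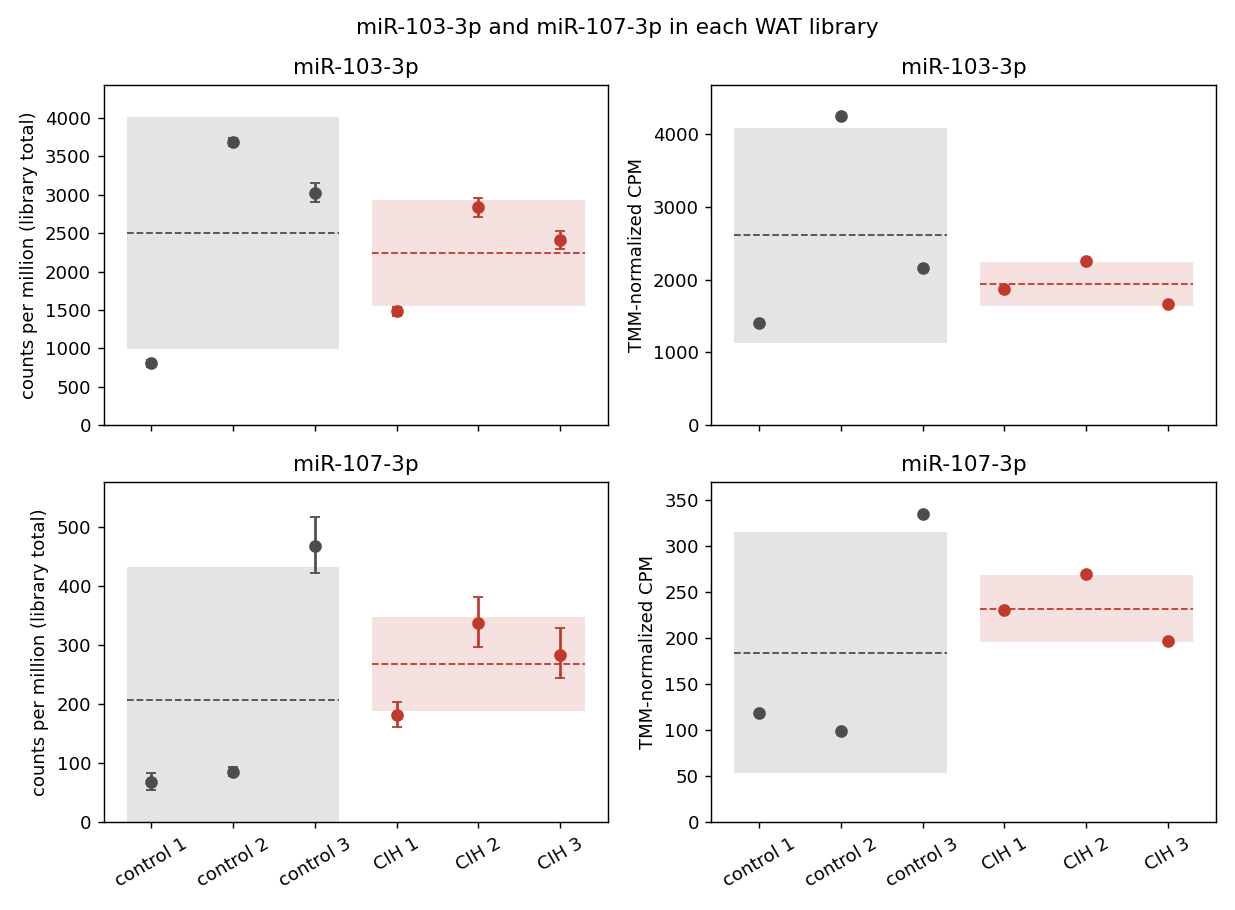
Level of miR-103-3p (top) and miR-107-3p (bottom) in each library, as CPM of the library total (left, bars are exact 95% binomial intervals) and as TMM-normalized CPM (right), with dashed group means and shading for ± 1 SD, cut at 0. Control 2 is highest for miR-103-3p at 4255 TMM-normalized CPM, whereas control 3 is highest for miR-107-3p at 334, and the CIH libraries lie between the control extremes.

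The comparison of the CIH group with the control group asked whether either miRNA changed with intermittent hypoxia, and no change was detected. The log2 fold change of miR-103-3p was -0.43 (standard error 0.66, 95% interval -2.01 to 1.15), with an adjusted p of 0.889 by the quasi-likelihood test of edgeR over all 633 miRNAs. For miR-107-3p the log2 fold change was 0.34 (standard error 0.67, 95% interval -1.26 to 1.93), with an adjusted p of 0.889 from the same test. The intervals are wide and include changes of more than 2-fold in either direction, so the data do not show that the levels were alike. The exact two-sided permutation test of log2 TMM-normalized CPM gave p = 0.8 for miR-103-3p and p = 0.4 for miR-107-3p, where 3 libraries against 3 cannot give less than 0.1. The mean log2 difference, CIH minus control, was -0.29 and 0.55. On library totals it was 0.056 for miR-103-3p, of the opposite sign (same exact permutation test, p = 1), and 0.89 for miR-107-3p (p = 0.4, exact).

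Over all miRNAs tested, 0 (0%) had an adjusted p under 0.05 and 16 (2.53%) had an unadjusted p under 0.05 in the edgeR fit. Neither miR-103-3p (unadjusted p = 0.536) nor miR-107-3p (unadjusted p = 0.631) was among them, and 376 and 438 miRNAs, respectively, had a smaller p-value. The groups did not overlap for 51 miRNAs (8.06%), and they overlapped for both members. All miRNAs tested had a median log2 fold change of 0.07, with miR-103-3p below it and miR-107-3p above it.

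**Figure D2:**
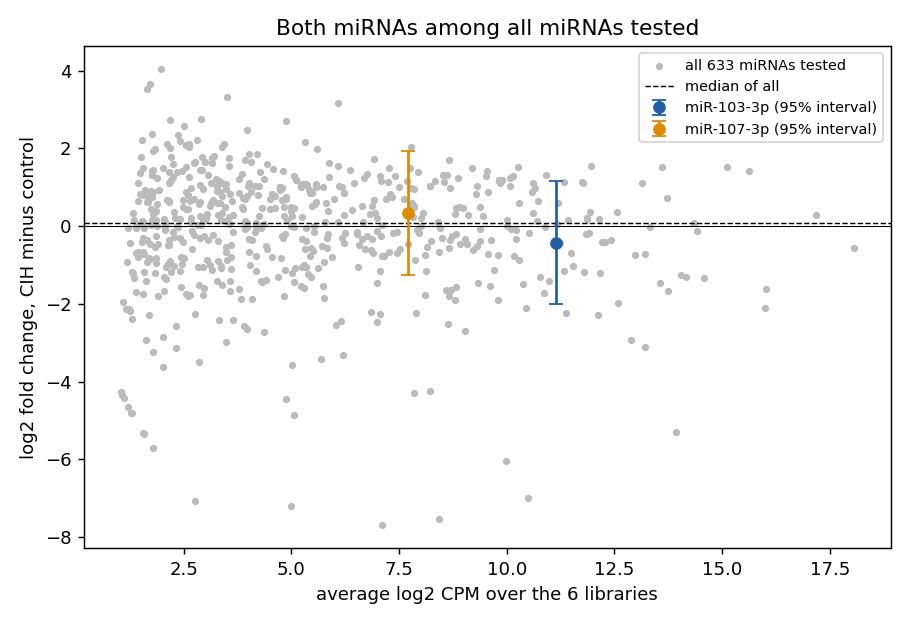
Log2 fold change (CIH minus control) against average log2 CPM for all 633 miRNAs tested (grey), with miR-103-3p and miR-107-3p and their 95% intervals. The values of -0.43 and 0.34 lie on either side of the median of all miRNAs, 0.07 (dashed line), and both intervals include 0.

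The estimates turned on different control libraries. Without control 2, in which miR-103-3p was highest, its log2 fold change was 0.19 (adjusted p = 0.967, edgeR), the opposite sign to that with all libraries. Without control 3, in which miR-107-3p was highest, the log2 fold change of miR-107-3p was 1.08 (unadjusted p = 0.0439, adjusted p = 0.128 from the same test). In that fit 150 of 614 miRNAs (24.4%) were higher in the CIH group at an unadjusted p under 0.05, and 118 (19.2%) had an adjusted p under 0.05 in either direction. Neither member was among the 118. For miR-103-3p the fit without control 3 gave a log2 fold change of -0.56 (adjusted p = 0.522 from the same test). Over all 14 alternatives the adjusted p of edgeR, DESeq2 or limma ran from 0.522 to 0.980 for miR-103-3p and from 0.128 to 0.975 for miR-107-3p. Scaling also moved the values. Library totals, with a median of all miRNAs of 0.33, gave a log2 fold change of -0.16 for miR-103-3p and 0.37 for miR-107-3p. Upper-quartile factors, which moved the median of all miRNAs from 0.07 to -0.52, gave -1.12 for miR-103-3p and -0.090 for miR-107-3p, so that the direction of miR-107-3p flipped on that scale, while it stayed above the median of all miRNAs.

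**Figure D3:**
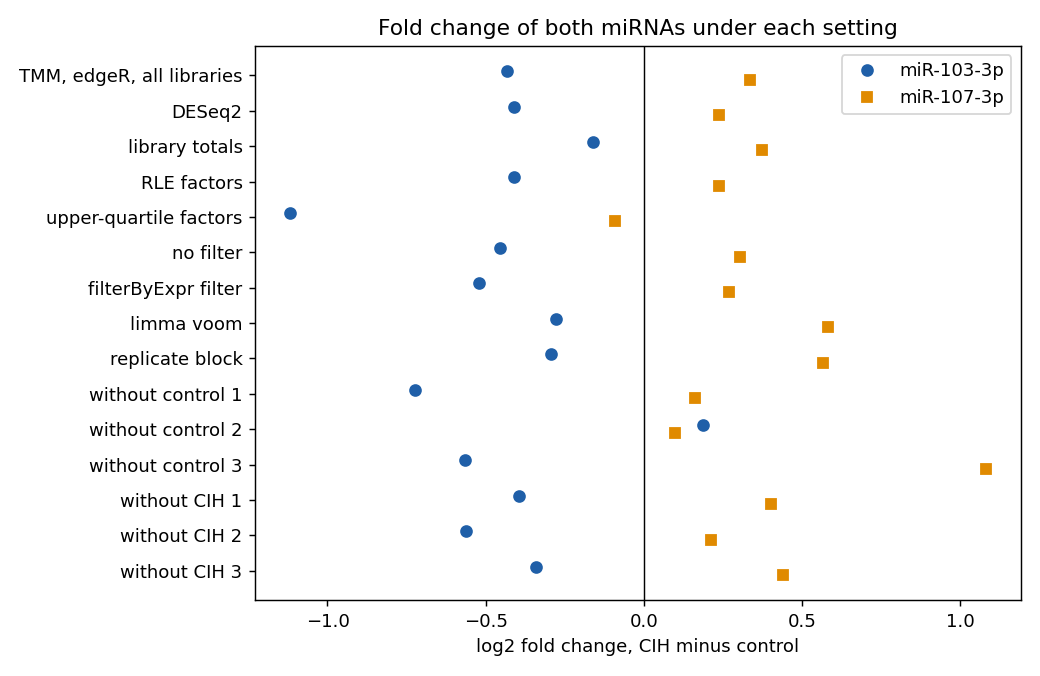
Log2 fold change (CIH minus control) of miR-103-3p (circles) and miR-107-3p (squares) under each setting, from edgeR with TMM factors and all libraries (top) to the fits that leave out 1 library each. miR-103-3p crosses 0 without control 2 (0.19), and miR-107-3p crosses 0 with upper-quartile factors (-0.090) and reaches 1.08 without control 3.

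The ratio of miR-103-3p to miR-107-3p counts needs no scaling between libraries. It was 11.8, 43.1 and 6.47 in control 1, 2 and 3, and 8.14, 8.40 and 8.47 in CIH 1, 2 and 3. The 3 CIH libraries thus had nearly the same ratio, and the control libraries lay on both sides of them. The exact 95% intervals, from the binomial share of each miRNA in their sum, were 7.20 to 9.24, 7.36 to 9.62 and 7.26 to 9.94 in the CIH libraries, and these overlapped each other. Those of control 1 (9.56 to 14.8), control 2 (39.1 to 47.7) and control 3 (5.80 to 7.24) did not overlap each other. The interval of control 3 overlapped that of CIH 1 and lay below those of CIH 2 and CIH 3. That of control 1 overlapped those of CIH 2 and CIH 3 and lay above that of CIH 1, and that of control 2 lay above all CIH libraries.

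Expressed as a share of the summed counts of the pair, miR-107-3p made up 7.80%, 2.27% and 13.4% in control 1, 2 and 3, and 10.9%, 10.6% and 10.6% in CIH 1, 2 and 3. The highest ratio exceeded the lowest 6.66-fold in the control group (3.65-fold without control 3) and 1.04-fold in the CIH group. The mean log2 ratio was 3.89 ± 1.40 (SD, n = 3) for the controls and 3.06 ± 0.029 (SD, n = 3) under CIH. Each CIH ratio lay within the counting intervals of the others, so the counts cannot resolve a spread as small as 0.029. The difference, CIH minus control, was -0.84, and it did not exceed the spread between libraries (exact two-sided permutation test, p = 0.4, smallest possible 0.1). Without control 3 the difference was -1.44 (same exact test, p = 0.2, the smallest that 3 libraries against 2 allow), and without control 2 it was -0.068 (p = 0.8, exact).

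**Figure D4:**
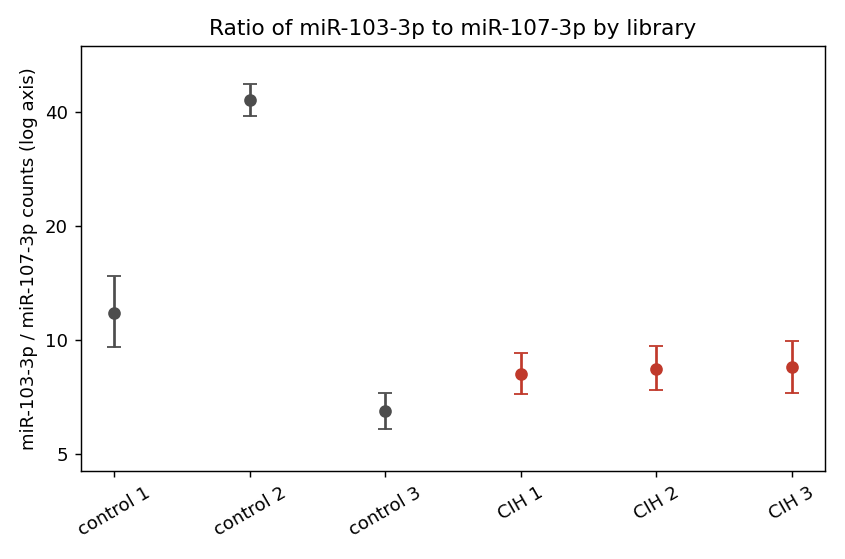
Ratio of miR-103-3p to miR-107-3p counts in each library on a log axis, with exact 95% intervals from the counts. The CIH libraries lie between 8.14 and 8.47, and the control libraries are at 11.8, 43.1 and 6.47.

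The high ratio of control 2 came with both a high miR-103-3p and a low miR-107-3p. Compared with control 3, control 2 had 1.97 times the TMM-normalized CPM of miR-103-3p and 0.295 times that of miR-107-3p. Compared with control 1, it had 3.04 times the level of miR-103-3p and 0.834 times that of miR-107-3p on the same scale. On library totals, control 2 had 1.22 times the miR-103-3p of control 3 and 0.183 times its miR-107-3p. Against control 1 on library totals it had 4.58 times the miR-103-3p and 1.26 times the miR-107-3p. The direction of miR-107-3p between control 2 and control 1 thus depended on the scale. Control 2 was also the deepest library, and the part of depth in its ratio was not tested. The summed level of the pair does not depend on how shared reads were divided between them, provided that each was counted once. Whether this was so is not given in the sources used here. The sum was 1517, 4354 and 2499 TMM-normalized CPM in control 1, 2 and 3, and 2107, 2528 and 1859 in CIH 1, 2 and 3. Control 2 remained the highest and control 1 the lowest on this sum, so the groups overlapped here too.

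Under CIH both miRNAs varied less between libraries than the median miRNA, and among the controls this depended on the scale and on control 3. In the CIH group the coefficient of variation was 15.6% for miR-103-3p and 15.7% for miR-107-3p on the TMM-normalized scale, against a median of 27.6% for the 395 miRNAs that averaged at least 10 TMM-normalized CPM. On library totals these were 30.9%, 29.5% and 35.6%. Among the controls, miR-103-3p had 56.7% and miR-107-3p 71.1% on the TMM-normalized scale, against a median of 84.1%. On library totals they had 60.3% and 109%, against 87.5%, so that miR-107-3p was above the median there. Without control 3, miR-103-3p had 71.4% and miR-107-3p 12.8% TMM-normalized, against a median of 61.7% over the other 2 controls. The 395 miRNAs were not matched to the members for level. Counting error is larger at low counts, and its part in these comparisons was not tested. On the TMM-normalized scale in the CIH group, 101 of the 395 varied less than miR-103-3p and 102 less than miR-107-3p. On library totals these numbers were 162 and 152, so the place of both members depended on the scale.

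The order of the 6 libraries differed between the 2 miRNAs, mainly in the place of control 2. On library totals the other libraries stood in the same order for both miRNAs. On the TMM-normalized scale only control 3 and CIH 2 changed places among them. Among the 237 other miRNAs whose count reached 10 in all 6 libraries, miR-107-3p took place 173 by its likeness to miR-103-3p. The Pearson correlation of TMM-normalized log2 CPM was -0.281, and the Spearman (rank) correlation was 0.086. On library totals the Pearson correlation was 0.506, of the opposite sign, and the place was 122. On the TMM-normalized scale the most alike to miR-103-3p were MIMAT0000129 (0.975), MIMAT0004747 (0.971) and MIMAT0000515 (0.964). All 3 were highest in control 2 and lowest in control 1, as miR-103-3p was. On the same scale the most alike to miR-107-3p were MIMAT0003409 and MIMAT0005448 (both 0.970), which had the same counts as each other in every library, and MIMAT0004934 (0.968). On library totals these 6 stood between places 1 and 10 of their lists. The last 3 had their lowest levels in control 1 and control 2. These miRNAs were picked for their likeness over the same libraries, so shared high and low libraries follow largely from the choice. The correlations are over 6 libraries that fall into separate clusters and share depth and composition within a library, and they are a description of these libraries only.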

How the data were processed

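Small RNA of mouse WAT was sequenced in 3 CIH and 3 control libraries. The authors deposited raw read counts per mature miRNA, without normalization. Trimming, aligner, miRNA database release and the treatment of multi-mapping reads are not given in the sources used here. No miRNA had the same counts in all libraries as either member, while 17 miRNAs with at least 50 counts shared theirs with another miRNA.

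The 633 miRNAs with at least 10 summed counts were tested with edgeR 4.0.16 in R 4.3.3 (TMM, quasi-likelihood, group as the only term, Benjamini-Hochberg adjustment). The fit was first tested on simulated data with less spread than the control libraries show. That run does not test the fit at the spread of these data. The ratio used a pseudocount of 0.5 and an exact permutation test (scipy 1.17.1, Python 3.11.15). For likeness, TMM-normalized log2 CPM had a prior count of 2. Spread and likeness on library totals, and spread without control 3, were added after seeing the data. DESeq2 1.42.0, limma 3.58.1 with voom, other scalings and filters, a replicate block and leaving out each library were alternatives. Depth was 636963 to 4783768 counts per library. Groups came from the labels.

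The members and lists were chosen with earlier results of these data known. The rule for names took both members and the 3 miRNAs most alike to each. Lists of 5p arms, the miR-15 and miR-16 family, insulin sensitivity miRNAs and cell types were set by name and could not be joined to identifiers.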

Additional observations from a re-analysis of the deposited data

How the results depend on the processing

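Of 14 alternatives, 13 kept the direction of miR-103-3p and 13 that of miR-107-3p, and the adjusted p of neither fell under 0.05 (0.522 to 0.980 and 0.128 to 0.975). Over the 6 fits that each dropped a library, the log2 fold change ran from -0.72 to 0.19 for miR-103-3p (0.19 without control 2) and from 0.098 to 1.08 for miR-107-3p (1.08 without control 3). Library totals, added after seeing the data, reversed the likeness of the pair (0.506 against -0.281) and the mean log2 difference of miR-103-3p (0.056 against -0.29). Upper-quartile factors reversed miR-107-3p to -0.090. The cause was not tested in these cases. The number of miRNAs with an adjusted p under 0.05 ran from 0 to 118 over the fits that left out a library (118 without control 3), and was 0 in the other 13 alternatives. The difference in log2 ratio ran from -1.44 to -0.068 in the same way and kept its sign in all 9 alternatives run.

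The replicate numbers were not taken as pairs, because the study names an unpaired test of the groups. The deviations of libraries with the same replicate number had correlations of 0.353, -0.116 and 0.019. With the replicate block the log2 fold change was -0.29 for miR-103-3p and 0.57 for miR-107-3p, with 0 miRNAs at an adjusted p under 0.05 (3 at an unadjusted p, against 16 without the block), and the log2 ratio differed by -0.84 (p = 0.5, exact sign flips of 3 pairs). The lists of 5p arms, family members, insulin sensitivity miRNAs and cell types were not run, because identifiers are not paired with names. miR-107-3p had its fewest counts, 93, in control 1. That library held 1365868 counts in all, more than control 3 (792870), CIH 2 (737514) or CIH 3 (636963).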
